A study of Arabidopsis thaliana with 8 samples.

Results

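The comparison of bpc4 bpc6 shoots with wild type shoots asks which transcripts depend on BPC4 and BPC6 in plants that carry no lhp1-4 lesion. It rests on 4 of the 8 arrays of the series, chosen by their labels alone: 2 of bpc4 bpc6 and 2 of wild type. Plants were Arabidopsis thaliana of the Columbia accession (Col-0), left untreated and harvested at 18 days. They came from a greenhouse kept at 20 °C, with a humidity of 35% and a light period of 18 h, and each array measured a pool of 6 plants. The wild type carried no named lesion, and bpc4 bpc6 carried lesions in BPC4 and BPC6, whose allele names the labels do not give. The other arrays, 2 of lhp1-4 and 2 of lhp1-4 bpc4 bpc6 (called the triple mutant here), served to estimate the spread and to measure the same double lesion where LHP1 was also mutated. All groups shared ecotype, age and tissue, and whole shoots were used, so that fewer cells of a type and less RNA per cell cannot be told apart.

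BPC4 and BPC6 belong to class II of the BASIC PENTACYSTEINE family, plant proteins that bind GAGA repeats in DNA and take part in both activation and repression of developmental genes. LHP1, short for LIKE HETEROCHROMATIN PROTEIN 1, has a chromodomain with which it binds trimethylated lysine on histone H3 at Polycomb targets and helps to keep them silent. The title of the series links both, placing LHP1 at GAGA motifs through BPC6. Loss of class II BPC proteins can therefore be measured in plants with LHP1 and in plants without it.

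The sources used here do not pair the array's probe sets with genes. Results are therefore given for groups of probe sets and for the 2 largest rises and 2 largest falls by array identifier, and no gene, pathway or sequence is named. Neither the mutated genes nor markers of shoot tissue were analysed here, so the labels were not checked against them. Values are intensities on a linear scale, on which 22716 of 22746 probe sets were tested after values of 1000 or more had been restored to that scale. For 5007 of them the level was undetermined (called open here), while the fold change was not affected. Array medians lay between 54.7 and 58.3, with open probe sets taken as they stood, and the replicate correlation of log2 values between 0.993 and 0.997.

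In bpc4 bpc6 219 probe sets rose, 0.964% of those tested, and 191 fell, 0.841%, which makes 410 calls or 1.8% at a limma adjusted p under 0.05 (n = 2 arrays per genotype). Most of these changes were moderate. The interquartile range ran from 0.73 to 1.23 on the log2 scale for the rises and from -1.04 to -0.64 for the falls. A change of at least 2-fold was found in 89 rises (0.392% of probe sets tested) and 56 falls (0.247%). Changes of at least 4-fold were fewer, with 21 in all, of which 17 were rises. The smallest called change was a rise of 0.47 and a fall of -0.48 on the log2 scale, and 19 rises and 23 falls were under 1.5-fold.

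All 410 called probe sets had both bpc4 bpc6 arrays on one side of both wild type arrays. Arrays separated in this way were common in the background too, at 18.5% of probe sets for higher and 25.8% for lower values in bpc4 bpc6. When each bpc4 bpc6 array was set against each wild type array, the 219 rises had medians from 0.87 to 0.96 on the log2 scale over the 4 pairings, and the 191 falls had medians from -0.87 to -0.79. The smallest called rise in any pairing of single arrays was 0.3964, and the smallest called fall -0.38. In 0 of the 410 did the wild type arrays, or the bpc4 bpc6 arrays, differ by 2-fold or more, whereas over all probe sets 274 differed that much between the wild type arrays and 116 between the bpc4 bpc6 arrays. Single arrays of the 2 genotypes differed that much in 421 to 547 probe sets over the 4 pairings, and the genotype means in 320. The test draws on the spread, so calls fall by construction where replicates lay close together.

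Called probe sets were found at all settled levels. Of the 410 calls 409 had a settled level. Levels were compared by the average of both genotypes on the log2 scale, because the level in either genotype alone enters the change: the wild type medians were 85.2 for the rises and 205 for the falls, and the bpc4 bpc6 medians stood in the opposite order, at 164 and 112. By the average level the median intensity was 115 for the rises, 150 for the falls and 105 for all 17709 probe sets of settled level, with overlapping interquartile ranges of 46.3 to 347 for the rises and 53.9 to 328 for the falls. Among settled levels calls were least frequent in the 3355 probe sets with an average under 20, at 0.507% for rises and 0.387% for falls. The 5007 probe sets of open level held 0 rises and 1 fall (0.02%). All their deposited values lay between 3 and 10 by definition, which limits the change they can show. Their share of calls is therefore no result about level. In the brighter classes, from 20 to 50 up to 1000 or more, rises made up 1.14% to 1.69% and falls 0.858% to 1.55%. Of the changes of at least 2-fold, 33 of 89 rises and 13 of 56 falls had an average under 50. The median standard error was 0.16 under an average of 20 and 0.11 at 1000 or more. The share of calls was 1.81% among the 21656 probe sets with the plain suffix _AT and 1.70% among the 1060 with the suffix _S_AT or _X_AT, whose probes can match more than 1 transcript.

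**Figure D1:**
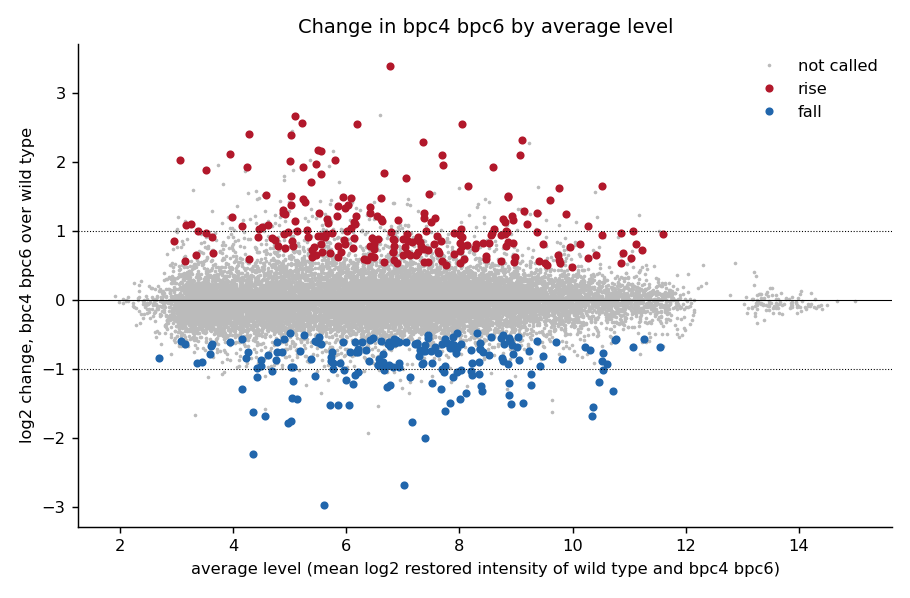
Change in bpc4 bpc6 over wild type (vertical axis, log2) against the average level (horizontal axis, mean log2 intensity of both genotypes) for the 17709 probe sets of settled level, with called rises in red, called falls in blue and dotted lines at 2-fold. Rises and falls overlap in level, with medians of 115 and 150 in intensity. Probe sets with all deposited values between 3 and 10 have an open level and are not drawn. Those left out can be dim or can belong to a stretch near the bright end, which is thinly filled.

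The largest rise was in probe set 260522_X_AT, whose suffix marks probes that can also match other transcripts. Its intensity was 39.6 and 28.6 in the wild type arrays and 421 and 296 in the bpc4 bpc6 arrays, and it was 22.3 and 13.6 in lhp1-4 and 16.5 and 16.9 in the triple mutant. Both bpc4 bpc6 arrays stood far above the other 6 arrays, and the triple mutant lay within the range of lhp1-4, below wild type. The change of 3.39 ± 0.28 on the log2 scale (error as SE, n = 2 arrays per genotype; 95% interval 2.73 to 4.06; limma adjusted p = 0.00733) corresponded to 10.5-fold. In the lhp1-4 background loss of BPC4 and BPC6 changed it by -0.06 ± 0.28 (limma adjusted p = 0.99).

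Probe set 263402_AT was also high in bpc4 bpc6, at a lower level. It read 15.01 and 12.31 in wild type, 84.0 and 87.8 in bpc4 bpc6, 11.6 and 10.9 in lhp1-4, and 10.91 and 14.96 in the triple mutant. The bpc4 bpc6 arrays again stood apart, and the triple mutant overlapped both wild type and lhp1-4. The rise was 6.32-fold, 2.66 ± 0.17 on the log2 scale (error as SE, n = 2 arrays per genotype; 95% interval 2.26 to 3.06; limma adjusted p = 0.00361), against 0.19 ± 0.17 in the lhp1-4 background (limma adjusted p = 0.677).

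The largest fall, in probe set 247878_AT, differed from these in that lhp1-4 was low as well. Intensities were 151 and 122 in wild type and 19.4 and 15.4 in bpc4 bpc6. They were 7.69 and 7.67 in lhp1-4 and 6.91 and 5.43 in the triple mutant. The 4 genotypes did not overlap, and both genotypes with lhp1-4 lay below bpc4 bpc6. The fall in bpc4 bpc6 was 7.86-fold, -2.98 ± 0.17 on the log2 scale (error as SE, n = 2 arrays per genotype; 95% interval -3.38 to -2.57; limma adjusted p = 0.00361). In lhp1-4 and the triple mutant all 4 values lay under 10, in the range that holds every value of the 5007 probe sets of open level, and they were not checked against background. The change of -0.33 ± 0.17 by the double lesion in the lhp1-4 background (limma adjusted p = 0.391) therefore does not show how far the transcript fell.

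Probe set 262931_AT was low in bpc4 bpc6 alone. It read 379 and 286 in wild type and 54.4 and 48.0 in bpc4 bpc6, against 251 and 294 in lhp1-4 and 286 and 239 in the triple mutant. Wild type, lhp1-4 and the triple mutant overlapped, and both bpc4 bpc6 arrays lay below all of them. The fall of 6.44-fold, -2.69 ± 0.17 on the log2 scale (error as SE, n = 2 arrays per genotype; 95% interval -3.09 to -2.28; limma adjusted p = 0.00361), stood against -0.06 ± 0.17 in the lhp1-4 background (limma adjusted p = 0.968).

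**Figure D2:**
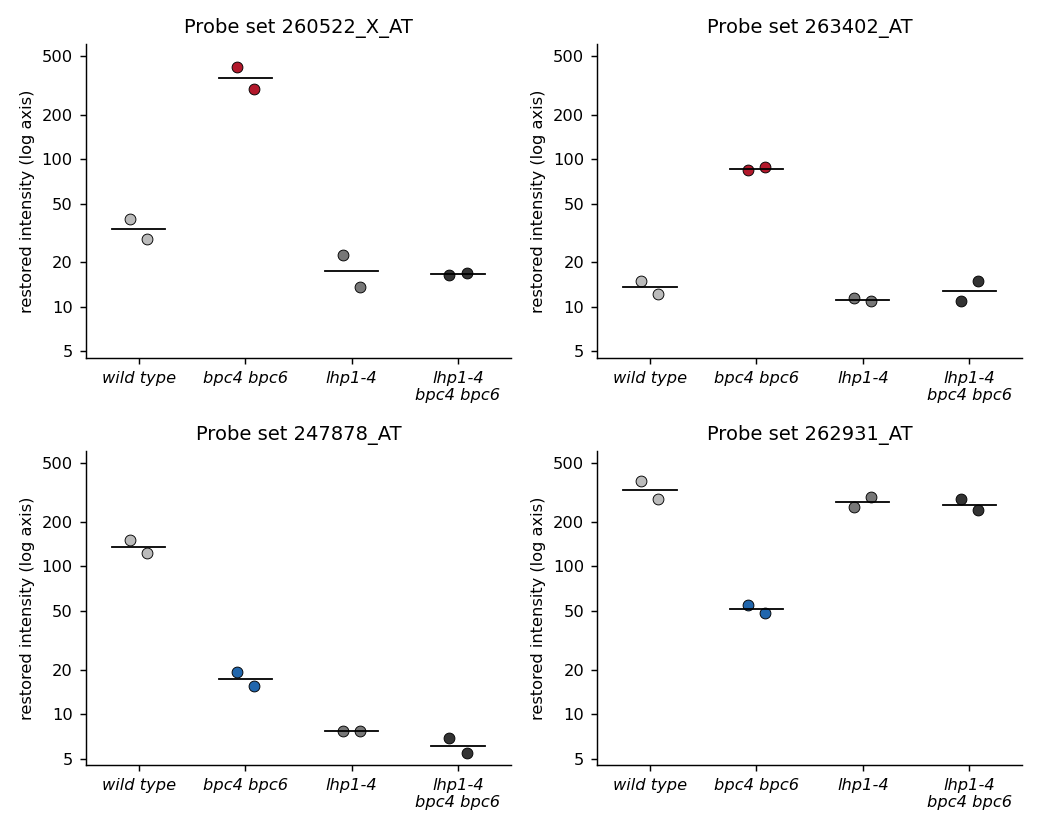
Intensity of each array (points, log axis) with the genotype mean on the log scale (bars) for the 2 largest rises and 2 largest falls in bpc4 bpc6. In 3 of the 4 panels bpc4 bpc6 stands apart from the other 3 genotypes, and in that of 247878_AT both genotypes with lhp1-4 lie lower still.

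Whether the double lesion moved the same probe sets where LHP1 was mutated too was read from the triple mutant against lhp1-4, 4 arrays that took no part in the comparison with wild type beyond the estimate of spread. The 219 rises had a median change of 0.94 on the log2 scale with LHP1 present and 0.03 in the lhp1-4 background, where their interquartile range lay between -0.17 and 0.35. The 191 falls had medians of -0.82 and -0.01, with a interquartile range between -0.25 and 0.27. Direction carried over little: 118 of 219 rises (53.9%) and 100 of 191 falls (52.4%) moved the same way in the lhp1-4 background, against 51.1% of all probe sets tested. Only the first of each pair of medians was favoured by the choice of the probe sets. Without any 1 of the lhp1-4 or triple mutant arrays the median in the lhp1-4 background stayed between 0.02 and 0.04 for the rises and between -0.01 and 0.01 for the falls.

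Changes of at least 2-fold showed the same shift. The 89 rises of at least 2-fold had medians of 1.35 with LHP1 present and 0.06 in the lhp1-4 background, and the 56 falls of at least 2-fold had -1.26 and -0.03. In 71 of these 89 rises the 95% interval of the change in the lhp1-4 background lay wholly below a 2-fold rise, and in 49 of the 56 falls it lay wholly above a 2-fold fall. The 56 falls include 247878_AT, which was too dim in lhp1-4 to show a further fall of its size. Whether other falls were also too dim there was not examined. Counts and medians of the falls in the lhp1-4 background therefore need not show that an effect was lost. Over all probe sets tested 94.9% had an interval wholly below a 2-fold rise and 97.2% one wholly above a 2-fold fall. An interval wholly above 0 was found for 21 of the 89 rises (against 8.57% of all probe sets) and one wholly below 0 for 11 of the 56 falls (against 9.85%). Counting all calls, 44 rises (20.1%) and 22 falls (11.5%) reached at least 50% of their log2 change in the same direction in the lhp1-4 background, and 20 rises (9.13%) and 33 falls (17.3%) reached as much in the opposite direction. Over all probe sets, most of which changed little, these shares were 34.9% and 31.4%.

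Calls in the lhp1-4 background went both ways. Of the 219 rises 37 (16.9%) had a call there, 26 upward (11.9%) and 11 downward (5.02%), and of the 191 falls 36 (18.8%) had a call, 23 upward (12.0%) and 13 downward (6.81%). Over all probe sets tested 2.18% rose and 1.13% fell in the triple mutant against lhp1-4. The shares were thus above the background in both directions, and both comparisons use the same estimate of spread for a probe set. The count of 753 calls behind this background fell to 97 when lhp1-4 replicate 1 was dropped and to 34 when replicate 2 was, and to 196 or 219 when triple mutant replicate 1 or 2 was.

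The difference between the backgrounds itself was tested as an interaction, which 2.33% of probe sets passed at a limma adjusted p under 0.05. It was called in 44 of the 89 rises and 36 of the 56 falls of at least 2-fold, and in 54 of 130 rises and 47 of 135 falls under 2-fold. The interaction ran against the direction of change with LHP1 present in 97 of the 98 rises and in all 83 falls with a call. The arrays that chose the probe sets also enter the interaction with the opposite sign, so these shares are a description of the calls. For the 4 probe sets above the interaction was -3.45 ± 0.40 for 260522_X_AT, -2.47 ± 0.24 for 263402_AT, 2.65 ± 0.24 for 247878_AT and 2.63 ± 0.24 for 262931_AT (SE, log2 scale), with limma adjusted p from 0.00821 to 0.0135. That of 247878_AT rests on lhp1-4 values of 7.69 and 7.67, from which a further 7.86-fold fall could not have been measured, so it is no sign that the effect differed. The other falls with an interaction call were not examined for dim lhp1-4 values. Each of these interaction calls ended without 1 array, at a limma adjusted p of 0.054 for 260522_X_AT without triple mutant replicate 1 and of 0.0521, 0.0521 and 0.05003 for the others without lhp1-4 replicate 2.

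**Figure D3:**
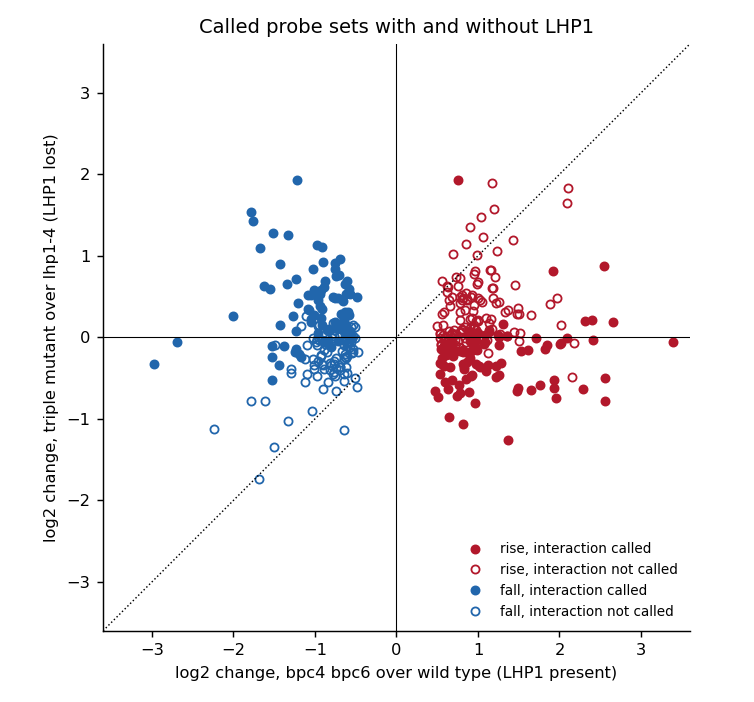
Log2 change in bpc4 bpc6 over wild type (horizontal axis) against the change in the triple mutant over lhp1-4 (vertical axis) for the 410 called probe sets, with rises in red, falls in blue, filled points where the interaction was called and a dotted line where both changes are equal. Points spread around 0 on the vertical axis, with medians of 0.03 for rises and -0.01 for falls, and not along the dotted line.

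The order of the 4 genotypes was examined for the called probe sets, with every level taken relative to the mean of the 2 wild type arrays that all genotypes share. Bpc4 bpc6 had the highest mean of the 4 genotypes in 142 of the 219 rises, the triple mutant in 61 and lhp1-4 in 16. For the falls it had the lowest mean in 138 of 191, the triple mutant in 40 and lhp1-4 in 13. Among the rises the median level was 0.94 in bpc4 bpc6, 0.48 in lhp1-4 and 0.57 in the triple mutant on the log2 scale, and among the falls it was -0.82, -0.34 and -0.35. The first value of each set was fixed by the choice of probe sets, and the others share their wild type arrays with it. That choice also favours bpc4 bpc6 as the extreme genotype. The order was not counted over all probe sets, so these counts have no background share.

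Called probe sets were mixed in this respect, by counts that also depend on the choice of probe sets and have no background share. In 92 of the 219 rises and 80 of the 191 falls both lhp1-4 and the triple mutant lay nearer to wild type than to bpc4 bpc6, as seen in 262931_AT. In the remainder at least 1 of the genotypes with lhp1-4 lay nearer to bpc4 bpc6, as both did in 247878_AT. The triple mutant varied most, with the central 80% of its levels between -0.45 and 1.82 for the rises and between -1.46 and 0.60 for the falls, as it also did over all probe sets tested, from -0.53 to 0.58.

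**Figure D4:**
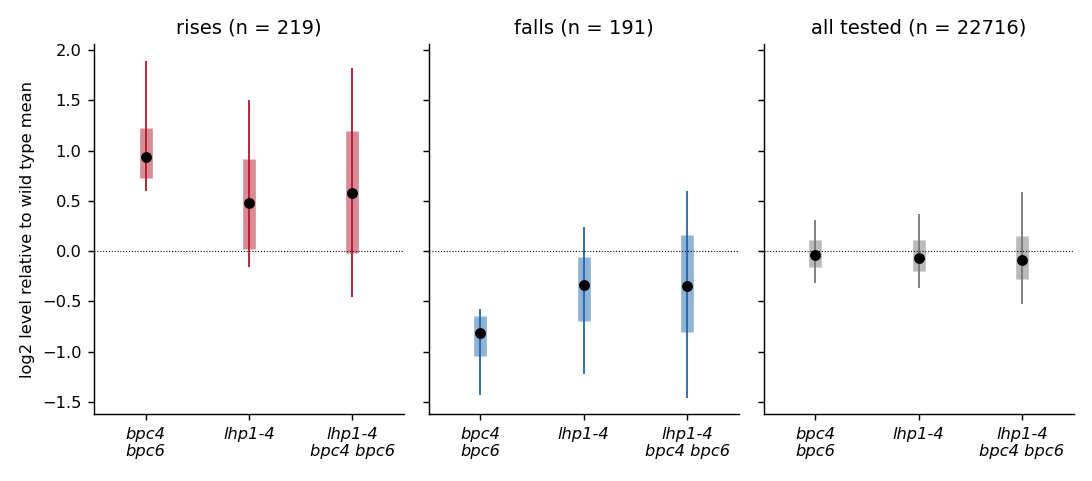
Level relative to the wild type mean (log2) in bpc4 bpc6, lhp1-4 and lhp1-4 bpc4 bpc6 for the 219 rises, the 191 falls and all 22716 probe sets tested; points are medians over probe sets, thick bars the interquartile range and thin lines the central 80%. The lhp1-4 and triple mutant medians lie at 0.48 and 0.57 for the rises and at -0.34 and -0.35 for the falls, between wild type at 0 and bpc4 bpc6.

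How many probe sets were called depended strongly on the arrays in the model. With wild type and bpc4 bpc6 alone, which leaves 2 residual degrees of freedom in place of 4, limma called 0 probe sets, with a smallest adjusted p of 0.0557, although 3139 had an unadjusted p under 0.05. Dropping wild type replicate 1 left 41 calls, and dropping bpc4 bpc6 replicate 1 or 2 left 82 or 61. Calls numbered 64 when one of the lhp1-4 arrays was dropped, whichever it was, and 192 when one of the triple mutant arrays was. It was 380 without wild type replicate 2, but only 169 of these were among the 410. The equal counts for either array of lhp1-4, and of the triple mutant, follow from the design: a genotype left with 1 array adds nothing to the spread. The direction of a call cannot turn when 1 array is left out, because the arrays did not overlap. Without any 1 of the 4 wild type and bpc4 bpc6 arrays the median change was between 0.89 and 0.97 for the rises and between -0.84 and -0.80 for the falls. These medians are over the probe sets chosen with all arrays, whose replicates lay close together. They could therefore move little and are no sign of stability.

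A small group kept its call throughout, in fits that were not all distinct. For this comparison the fit is the same whichever lhp1-4 array is dropped, and whichever triple mutant array is. With each of the 8 arrays left out in turn, 12 rises and 9 falls were called every time, the 4 named probe sets among them, and 149 of the 410 calls were made in none of the 8 fits. The 12 rises had changes from 1.01 to 3.39 on the log2 scale, and in the lhp1-4 background from -0.66 to 0.88, with medians of 2.06 and -0.01. All 12 had an interaction call in the model of all arrays, against 2.33% of all probe sets tested. The 9 falls had changes from -2.98 to -1.12, and in the lhp1-4 background from -1.03 to -0.06, with medians of -1.52 and -0.33. Of these falls 6 had an interaction call, among them 247878_AT. Its lhp1-4 values were too dim for a further fall of the size seen in bpc4 bpc6 to be measured, and the other falls were not examined for this. The arrays that chose this group also enter the interaction with the opposite sign. The interaction counts and the first median of each pair therefore only describe the group. Calls were also made in the lhp1-4 background in this group: 4 of the 9 falls fell there too, and of the 12 rises 2 rose and 1 fell. Over all probe sets tested 2.18% rose and 1.13% fell there. Both comparisons use the same estimate of spread for a probe set.

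**Figure D5:**
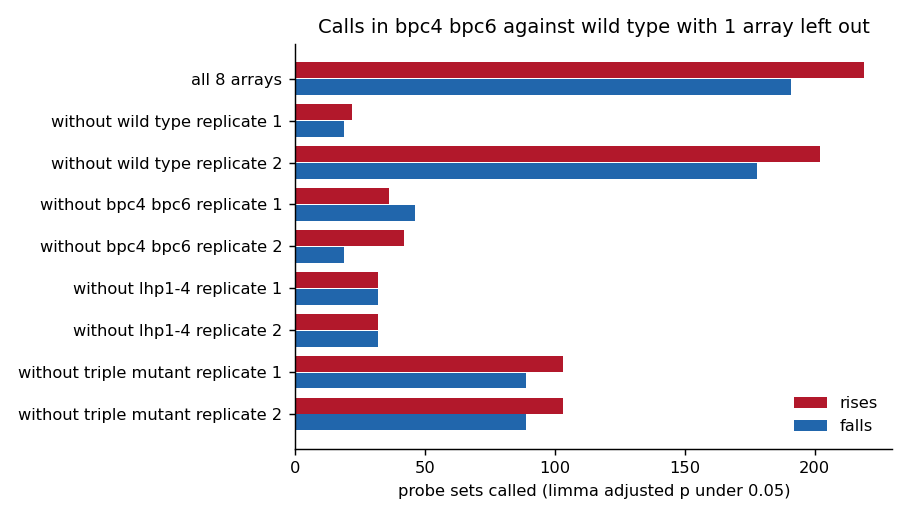
Number of probe sets called as rises (red) and falls (blue) in bpc4 bpc6 against wild type (limma adjusted p under 0.05, horizontal axis) with all 8 arrays and with each array left out in turn. Counts are near those of all arrays without wild type replicate 2, at 202 rises and 178 falls, and lowest without wild type replicate 1, at 22 and 19.

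For most probe sets without a call the arrays set a bound on the change in measured intensity. The 95% interval of the log2 change lay wholly between -1 and 1 in 20898 of the 22306 probe sets not called (93.7%), and the median half-width of the interval was 0.30. These intervals are not adjusted for the number of probe sets. Those not called include all but 1 of the 5007 probe sets of open level, whose deposited values lay between 3 and 10 by definition. They also include many dim probe sets, for which a narrow interval need not bound the change of the transcript. A mean difference of at least 2-fold without a call was seen in 175 probe sets, of which 153 had arrays that did not overlap, and these differences did not pass the test. Over all 22716 probe sets tested, called or not, the interval lay wholly above a 2-fold rise in 39 and wholly below a 2-fold fall in 22.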

How the data were processed

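Transcripts were measured on 8 one-colour arrays, 2 per genotype, from biotin-labelled cRNA. The authors deposited an intensity for each probe set on each array, computed with RMA per the submitters' processing notes; the version of RMA is not given in the sources used here. Values were linear and below 1000, from which it was inferred, without a check against scanner files, that any intensity from 1000 upward had been stored after division by 1000. Values under 3, or of 10 to 100 with 3 decimals, were multiplied by 1000. Other values of 10 to 100 were kept unless multiplication brought them within 5-fold of a settled value of 1000 or more in the same probe set. Values of 3 to 10 were settled when 1 reading lay within 5-fold of a settled value and the other at least 20-fold from all of them. Values were scaled in 1763 probe sets, 30 undecided ones and 1 control were left out, and 5007 with all values between 3 and 10 kept an open level.

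Log2 intensities were fitted in limma 3.58.1 (R 4.3.3) with 1 group-means model over the 4 genotypes and default eBayes, giving 4 residual and 2.85 prior degrees of freedom. Calls had a Benjamini-Hochberg adjusted p under 0.05 over all 22716 probe sets. The restoration and the fit were tested on simulated data. Named probe sets were the 2 largest called rises and falls of settled level whose arrays did not overlap. The planned naming of more, by gene annotation and gene lists, was not used, because the sources here do not pair probe sets with genes. The comparison, tests and naming rule were chosen with earlier results of these data known. Replicates are biological per the labels, and the small number of arrays limits the precision.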

Additional observations from a re-analysis of the deposited data

Results flagged for a closer look

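Effects of the double lesion that differed between the backgrounds, by limma's interaction test, were found in 529 probe sets. Of these 98 were rises and 83 were falls of bpc4 bpc6 against wild type, and 348 had no call there. All 4 named probe sets were included, with interactions of -3.45 for 260522_X_AT, -2.47 for 263402_AT, 2.65 for 247878_AT and 2.63 for 262931_AT on the log2 scale. That of 247878_AT starts from lhp1-4 intensities of 7.69 and 7.67, too dim for a further fall of the size seen in bpc4 bpc6 to be measured. The rest of the 83 falls were not examined for this. The interaction count was lowest, at 23, without lhp1-4 replicate 2. With 2 arrays per genotype no sample could be tested for standing apart from its group.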

How the results depend on the processing

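Under other settings the count of 410 calls in bpc4 bpc6 moved to 0 with only the genotypes compared in the model, 161 with array weights and 774 with probe sets of a mean intensity of at least 50 and settled level, where fewer probe sets were tested. The 753 calls within lhp1-4 moved to 386 with only the genotypes compared. Leaving out 1 array gave 41 to 380 calls in bpc4 bpc6, 34 to 701 within lhp1-4 and 23 to 401 interactions, partly because it lowers the degrees of freedom. The remaining settings stayed within 1.5 times of these counts: values as deposited (351 in bpc4 bpc6, 260 of them among the 410), no scaled or open values (404), arrays centred on their medians (585, with 263 rises and 322 falls), quantile normalization (360) and an intensity trend (571). The replicate block gave 470 calls in bpc4 bpc6 (330 among the 410), 788 within lhp1-4 and 566 interactions; numbers are shared between genotypes, but no label says that they mark a shared batch, and differences between replicates 1 and 2 correlated across probe sets at 0.208 between wild type and bpc4 bpc6 and at -0.184 to 0.231 over the 6 pairs of genotypes. The changes of the 4 named probe sets kept direction and call under every alternative run but 1: with only wild type and bpc4 bpc6 in the model their adjusted p was 0.0557 to 0.0778. Alternatives on gene lists were not run, since probe sets could not be paired with genes, and the interaction has no fit with fewer genotypes. Dim signal limits the falls that can be seen.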
